A study of Mus musculus with 6 samples.

Results

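The cytosolic ribosomal protein genes are the genes that encode the protein parts of the ribosomes working in the cytosol. They were chosen by name: a symbol that begins with Rpl or Rps and a digit, or Rplp0, Rplp1, Rplp2 or Rpsa, without the -ps names of annotated pseudogenes and without the Rps6k kinases. The rule took 89 of the 20673 genes in the tables, 52 with large subunit names and 37 with small subunit names, and it left out 115 -ps names and 10 Rps6k names. Of the 89 members, 84 were annotated as protein-coding and 5 (Rpl37rt, Rpl6l, Rps3a2, Rps3a3 and Rps4l) as pseudogenes or other types. Rps19bp1 fits the name rule but encodes a binding partner of Rps19 and not a ribosomal protein. Fau and Rack1 encode ribosomal proteins under other names and are given apart. The members lie on 19 chromosomes, with 14 on chromosome 7, 4 on X and none on Y.

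RNA from whole liver of C57BL/6J mice was sequenced, with 1 library per mouse. In the regular diet (RD) group 3 mice received a standard chow without further treatment, and in the high-cholesterol diet (HCD) group 3 mice received for 3 days a chow enriched in cocoa butter fat and cholesterol that also contains sodium cholate, a bile salt that aids cholesterol uptake. The livers are named RD 1 to RD 3 and HCD 1 to HCD 3. Adult mice of both sexes were used in the study, and the labels do not give the sex of each liver.

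Between 13771630 and 23129576 reads were assigned to genes in each library. Reads of Xist, the RNA that coats the inactive X chromosome of females, were counted in HCD 1 alone (5032 counts, and 0 in the other livers), and HCD 1 was also the liver with the highest level of 46 of the 87 members tested. RD 2 had the lowest level of 51 of the 87. The hepatocyte markers with a row, 5 of 6 listed, were abundant, at a sum of 82189 to 113204 in RD and 90595 to 130291 in HCD in CPM (counts scaled to a common library size with TMM factors, as all CPM here).

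Each ribosome pairs a small subunit, which reads the mRNA, with a large subunit, which joins amino acids and passes the chain out through a tunnel. Since each ribosome takes a single copy of nearly every protein, the genes are expressed in concert. Most of their mRNAs begin with a cytosine followed by a run of pyrimidines, the terminal oligopyrimidine tract, through which mTORC1 and Larp1 control their translation and stability in response to nutrients. The liver, which secretes most plasma proteins, holds many ribosomes.

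The sequences around the annotated transcription start, where such a tract would lie, are printed for genes the results turn on. RefSeq start windows for the build GRCm38.p6 were found for 65 of the 89 members, in 77 windows, since some genes have several starts. Among these 77 windows 31.2% had C at the start base, against 16.3% of all 32851 windows of the table, and 26.0% had a run of at least 6 pyrimidines that spans the start, against 7.25%. Each feature was thus absent from most of the members' windows. A run near the annotated start base that did not reach it was not counted, so these shares depend on the exact annotated position. The letters CCGGAAG, the core bound by ETS factors such as GABP, stood on either strand within 250 bases before to 50 bases after the start in 33.8% of the members' windows and in 8.86% of all windows. The complement of this motif contains pyrimidines, so the features can overlap. The 16 windows of the 13 called genes with an entry had C at the start base in 25%, the run in 31.3% and the motif in 43.8%. Each line below gives 15 bases before the start and 15 from it, 5′ to 3′, with the pyrimidine run that spans the start in capitals. The genes called higher with HCD that had such a run were Rpl34 (chr3:130730323-130730352, minus strand, where the run begins before the window), Rpl38 (chr11:114668565-114668594, plus), Rplp2 (chr7:141447636-141447665, plus), Rps15a (chr7:118116133-118116162, minus) and Rps24 (chr14:24490663-24490692, plus).
Rpl34: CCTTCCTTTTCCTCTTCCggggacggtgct
Rpl38: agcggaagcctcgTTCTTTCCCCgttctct
Rplp2: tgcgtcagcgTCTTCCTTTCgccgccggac
Rps15a: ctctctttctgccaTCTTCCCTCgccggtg
Rps24: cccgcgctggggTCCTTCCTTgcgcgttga

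Other called genes had no such run at the annotated start, here Rpl26 (chr11:68901551-68901580, plus), Rps15 (chr10:80292416-80292445, plus) and Rps26 (chr10:128626492-128626521, minus). Genes that were not called could have a long run, as Rps6 (chr4:86857353-86857382, minus), Rpl28 (chr7:4792950-4792979, plus) and Rps10 (chr17:27635230-27635259, minus) show. The run therefore stood in called and in uncalled members.
Rpl26: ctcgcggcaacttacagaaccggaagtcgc
Rps15: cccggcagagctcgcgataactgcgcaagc
Rps26: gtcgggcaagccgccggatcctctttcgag
Rps6: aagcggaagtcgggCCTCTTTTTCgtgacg
Rpl28: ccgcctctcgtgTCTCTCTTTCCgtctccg
Rps10: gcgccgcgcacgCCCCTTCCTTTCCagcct

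Levels of different members were compared in FPKM, a level per gene length and sequencing depth, as deposited by the authors. In RD livers 43 members had a mean above 100 FPKM, 38 lay between 10 and 100, and 8 were at 10 or below, around a median of 95.9 FPKM. In HCD livers 49 were above 100 FPKM, 32 between 10 and 100 and 8 at 10 or below, around a median of 126 FPKM. Over all genes FPKM summed to 623135, 613897 and 657843 in RD 1 to 3 and 635270, 699921 and 892704 in HCD 1 to 3. FPKM of the diets are therefore not on a common scale. The order was close to the same in both diets (Spearman's rho 0.98 across 89 genes, which share libraries and gene lengths and are not replicates). Of the 88 neighbour pairs in this order, the 3 livers did not overlap in 9 pairs with RD and in 5 with HCD, so most neighbours could not be told apart.

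Rplp1, a protein of the acidic stalk that draws elongation factors to the ribosome, was highest at 789 ± 125 FPKM in RD and 1272 ± 63.9 in HCD (mean ± SD, n = 3 here and for every FPKM below). The next large subunit genes by mean over all 6 livers were Rpl36 at 300 ± 30.1 FPKM in RD and 571 ± 197 in HCD, Rpl4, whose protein lines the exit tunnel, at 347 ± 22.0 and 406 ± 46.3, and Rpl10, among the last proteins to join the large subunit, at 301 ± 7.97 and 378 ± 26.6. The leading small subunit genes were Rps3a1 at 446 ± 43.6 FPKM in RD and 561 ± 9.84 in HCD, Rps2, at the mRNA entry, at 428 ± 10.6 and 516 ± 76.4, Rps15, near the decoding centre, at 328 ± 13.4 and 598 ± 38.3, and Rps6, the substrate of the S6 kinases, at 254 ± 23.5 and 330 ± 21.4.

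**Figure D1:**
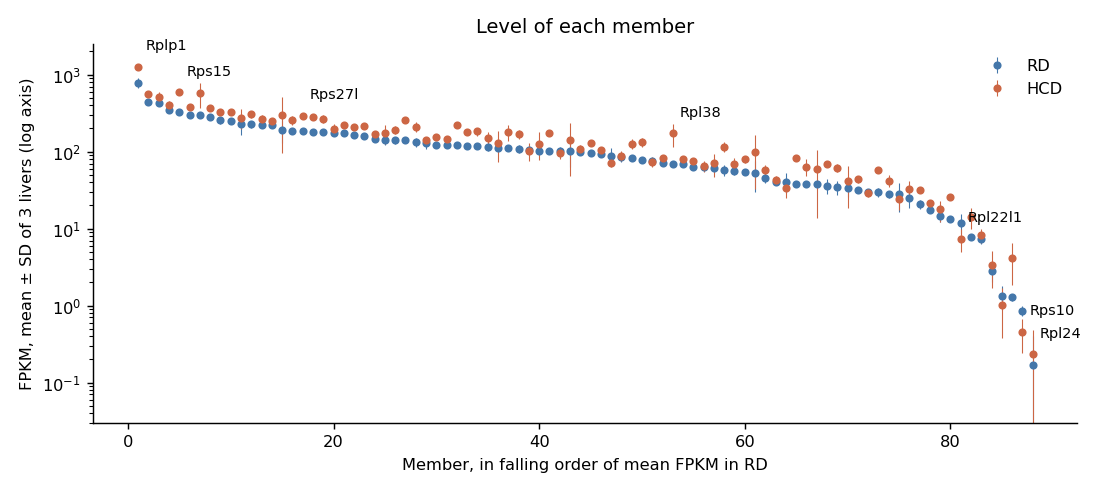
FPKM of each member with reads in both diets (log axis, points are means and bars SD of 3 livers), in falling order of the RD mean, with RD in blue and HCD in orange. Most HCD points lie above the RD point of the same gene, and the last few genes fall below 10 FPKM. The FPKM sums of all genes differ between libraries. Rpl3l, listed at 0 in HCD, is not drawn, and a bar that would reach 0 ends at the lower axis.

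A few protein-coding members had low levels. Rps10 had 0.858 ± 0.129 FPKM in RD and 0.458 ± 0.216 in HCD, Rpl36al 1.33 ± 0.456 and 1.03 ± 0.651, Rpl13a 7.41 ± 1.14 and 8.25 ± 1.67, Rpl21 7.71 ± 0.465 and 14.3 ± 4.37, and Rpl22l1 11.9 ± 3.41 and 7.41 ± 2.38. Rpl24, a protein of a bridge between the subunits, had 1, 0 and 7 counts in RD 1 to 3 and 3, 5 and 0 in HCD 1 to 3. The members with the largest share of exon under another annotated gene on the same strand were among them, with 47.0% for Rpl24, 35.4% for Rpl13a, 24.5% for Rpl36al and 20.6% for Rps10, a set chosen after its values were seen. The share was 4.06% for Rpl21 and 0% for Rpl22l1, which were low without such overlap. A read that falls in 2 genes is commonly dropped in counting, no source used here gives their treatment, and their part in these low levels was not tested. Rpl24 and Rpl3l, the muscle form of Rpl3 with 2 counts in RD 1 and none elsewhere, did not pass the filter on low counts, which left 87 members, 50 large and 37 small.

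With HCD, most ribosomal protein genes had higher levels. By edgeR (quasi-likelihood test, p adjusted over 13105 genes by Benjamini-Hochberg), 14 of the 87 members tested were called higher at an adjusted p under 0.05 and none lower, whereas 1.95% of all genes tested were called higher and 1.32% lower. The members called were 6 of 50 large subunit genes and 8 of 37 small subunit genes. Before adjustment, p was 0.05 or less for 42 higher members and 1 lower member, beside 11.1% and 9.81% of all genes. Every HCD liver was above every RD liver in 52 of the 87 (59.8%, against 14.0% of all genes), and every HCD liver was below in 1, beside 13.7%. The log2 fold change was above 0 in 77 of the 87, against 50.7% of all genes. In bulk RNA, more RNA per cell and more cells of a type rich in these mRNAs cannot be told apart.

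The subunits had similar medians, and differences between their counts were not tested. The median log2 fold change was 0.34 for the 50 large subunit genes and 0.36 for the 37 small subunit genes, and 0.01 for all genes tested. Of the large subunit genes 41 were above 0 and 9 below, and of the small subunit genes 36 were above and 1 below. The summed CPM of the large subunit genes was 6676, 6274 and 6944 in RD 1 to 3 and 9041, 8091 and 8570 in HCD 1 to 3. That of the small subunit genes was 5138, 4729 and 5270 in RD and 7049, 6420 and 6596 in HCD. Neither sum overlapped between the diets, and the HCD mean was 1.29-fold and 1.33-fold the RD mean. The ratio of large to small subunit CPM was 1.31 ± 0.014 in RD and 1.28 ± 0.020 in HCD (SD, n = 3). Members took 1.22%, 1.15% and 1.22% of all counts in RD 1 to 3 and 1.72%, 1.42% and 1.35% in HCD 1 to 3. As a share of all FPKM, the large subunit genes had 0.957%, 0.888% and 0.977% in RD and 1.43%, 1.09% and 0.924% in HCD, so that HCD 3 fell within the RD range on that scale.

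**Figure D2:**
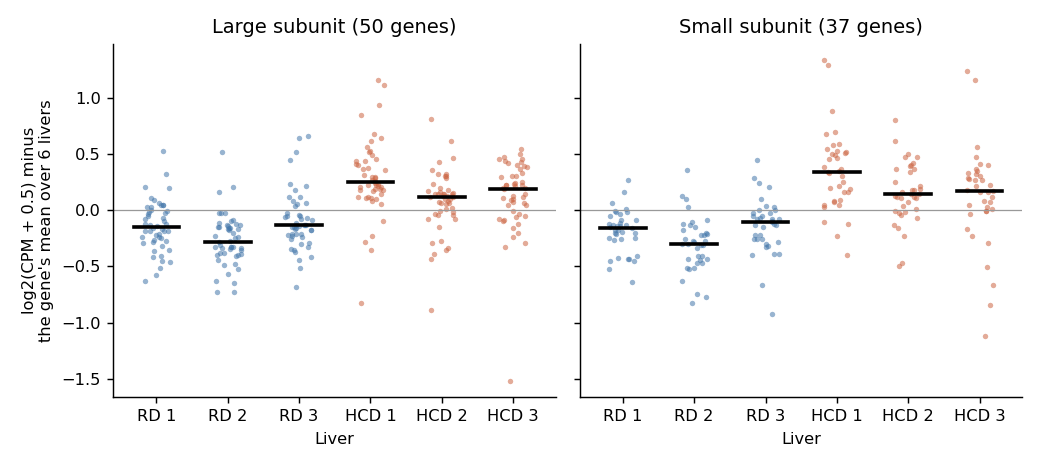
Difference of log2(CPM + 0.5) of each tested member from its own mean over 6 livers (y axis) in each liver (x axis), with 50 large subunit genes on the left and 37 small subunit genes on the right. Black lines are medians, which lie below 0 in the RD livers and above 0 in the HCD livers, with RD 2 lowest and HCD 1 highest.

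The calls depended on which livers entered the fit. Without RD 1 or without RD 2 no member was called (0.112% and 0.144% of all genes were called higher), without RD 3 there were 4 (0.547% of all genes), and without HCD 3 there were 5 (0.384%), while the median log2 fold changes stayed between 0.31 and 0.41. Without HCD 1, the liver with Xist reads, 11 of the 14 remained called (1.51% of all genes) and the medians were 0.34 for both subunits. With DESeq2 29 members were called higher and none lower, beside 4.85% of all genes called higher.

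Among the large subunit genes, Rpl34 had the smallest adjusted p. Its level was 67.6, 65.0 and 74.2 CPM in RD 1 to 3 and 149, 155 and 140 CPM in HCD 1 to 3. The diets did not overlap, and the fitted change was 2.15-fold (log2 fold change 1.10 ± 0.12 SE, edgeR adjusted p = 0.0061). Rpl38, known from mice with altered vertebrae for its part in the translation of Hox mRNAs, had 27.5, 25.1 and 24.5 CPM in RD and 86.1, 49.1 and 53.5 CPM in HCD. HCD 1 was far above the other HCD livers, which were still above all RD livers, and the change was 2.45-fold (log2 1.29 ± 0.22 SE, edgeR adjusted p = 0.025). Rpl26, at the exit of the nascent chain tunnel, was even within each diet, with 140, 136 and 139 CPM in RD and 245, 250 and 251 CPM in HCD. It rose 1.80-fold (log2 0.85 ± 0.12 SE, edgeR adjusted p = 0.014).

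The stalk protein gene Rplp2 had 85.3, 68.7 and 89.7 CPM in RD and 182, 140 and 161 CPM in HCD, a 1.98-fold rise (log2 0.99 ± 0.16 SE, edgeR adjusted p = 0.022). Rpl29, whose protein also binds heparin, had 73.7, 79.3 and 83.1 CPM in RD and 125, 131 and 139 CPM in HCD. The diets were apart by more than their spread, with a 1.67-fold rise (edgeR adjusted p = 0.023). Rpl27 was the weakest call, with 121, 116 and 131 CPM in RD, 197, 167 and 200 CPM in HCD and a 1.53-fold rise (edgeR adjusted p = 0.048).

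Among the small subunit genes, Rps15a had 57.6, 54.8 and 59.5 CPM in RD and 119, 102 and 105 CPM in HCD, a 1.90-fold rise (log2 0.92 ± 0.12 SE, edgeR adjusted p = 0.012). Rps15 had 140, 140 and 145 CPM in RD and 268, 249 and 243 CPM in HCD (1.79-fold, edgeR adjusted p = 0.017). Both were tight within each diet, and no HCD liver came near an RD liver. Rps24, a gene mutated in Diamond-Blackfan anaemia, had 127, 112 and 139 CPM in RD and 262, 247 and 219 CPM in HCD (1.92-fold, edgeR adjusted p = 0.019). Rps26, which lies beside the mRNA as it leaves the small subunit, had 127, 119 and 139 CPM in RD and 241, 226 and 218 CPM in HCD (1.78-fold, edgeR adjusted p = 0.020). For both genes the HCD livers lay closer to each other than to any RD liver.

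Rps13 had 68.1, 52.7 and 77.7 CPM in RD and 131, 126 and 120 CPM in HCD, a 1.90-fold rise (edgeR adjusted p = 0.026). Rps27l, a paralog of Rps27 that p53 induces, had 107, 96.9 and 103 CPM in RD and 163, 165 and 156 CPM in HCD (1.58-fold, edgeR adjusted p = 0.029). RD 2 was the lowest liver for both. Rps25, needed for initiation at some viral internal entry sites, had 153, 131 and 139 CPM in RD and 252, 207 and 254 CPM in HCD (1.68-fold, edgeR adjusted p = 0.034). Rps12 had 52.1, 37.4 and 53.8 CPM in RD and 92.1, 87.4 and 72.9 CPM in HCD (1.76-fold, edgeR adjusted p = 0.044). In all 14 called genes every HCD liver stood above every RD liver. The called genes Rpl34, Rps24 and Rps15a were called in 4 of the 6 fits that left out a liver, and Rpl27 and Rps12 in none.

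**Figure D3:**
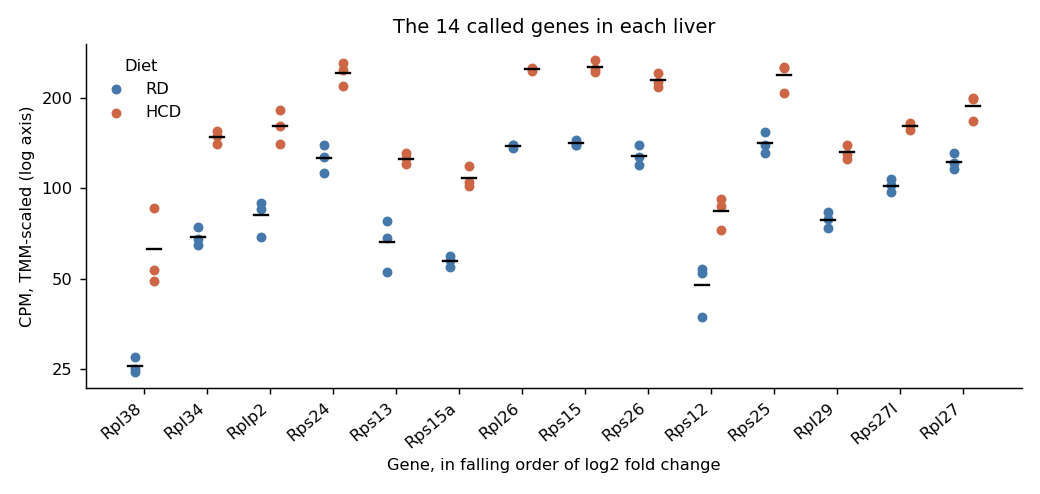
TMM-scaled CPM (log axis) of the 14 called genes in 3 RD livers (blue) and 3 HCD livers (orange), with black bars at the means, in falling order of log2 fold change from Rpl38 to Rpl27. All HCD points lie above the RD points of the same gene, by 2.45-fold for Rpl38 and 1.53-fold for Rpl27.

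The genes called by edgeR encode short proteins. For 82 members tested that have an annotated coding sequence, the protein length of the main transcript was set against the change. The main transcript was one marked as principal in the annotation where there was any, and among candidates the one with the longest coding sequence. Spearman's rho across these genes was -0.38 (a description, since the genes share the same 6 livers). The 14 genes encode between 70 residues (Rpl38) and 160 residues (Rpl29), and edgeR called none of the 33 members above 160 residues, a limit chosen after the values were seen, though before adjustment p was 0.05 or less for 11 of them, all higher. DESeq2 called Rpl14 (217 residues, DESeq2 adjusted p = 0.0029) and Rpl12 (165 residues, DESeq2 adjusted p = 0.0095) among these longer members, and edgeR called Rpl14 with upper-quartile factors (edgeR adjusted p = 0.048) or a filter at a mean of 50 counts (edgeR adjusted p = 0.045). The median log2 fold change was 0.59 for the 49 members of up to 160 residues and 0.22 for the 33 longer ones. The share of members with every HCD liver above every RD liver was nearly the same, 61.2% of the shorter and 60.6% of the longer. By finer classes the median was 0.45 for 11 members of up to 100 residues, 0.57 for 30 of 101 to 150, 0.38 for 18 of 151 to 200 and 0.24 for 23 above 200. In the shortest class HCD 1 was the highest liver for 9 of the 11. Every HCD liver was above every RD liver in 3 of the 11 (27.3%, against 14.0% of all genes).

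Gene length moved with the diet over the whole table too. Across 13097 genes the log2 fold change fell with summed exon length (Spearman's rho -0.25). In each library, the deviation of each gene's log2 level from its mean over all livers was set against log2 length. The slope was 0.042, 0.067 and 0.049 in RD 1 to 3 and -0.012, -0.058 and -0.088 in HCD 1 to 3. The signs are thus relative between libraries and do not show how level itself varied with length. With the length trend removed from each library, 7 members were called higher (Rpl26, Rpl34, Rplp2, Rps13, Rps15a, Rps24 and Rps26) beside 1.05% of all genes. The medians were then 0.24 for the large and 0.22 for the small subunit genes, and 0.43 for members of up to 160 residues against 0.12 for longer ones. By the finer classes they were 0.15 for members of up to 100 residues, 0.44 for 101 to 150, 0.26 for 151 to 200 and 0.14 above 200, so that the shortest class lay near the longest. Content of G and C bases (rho 0.03) and the share of sequence in common with other genes (rho -0.07) had little relation to the change.

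**Figure D4:**
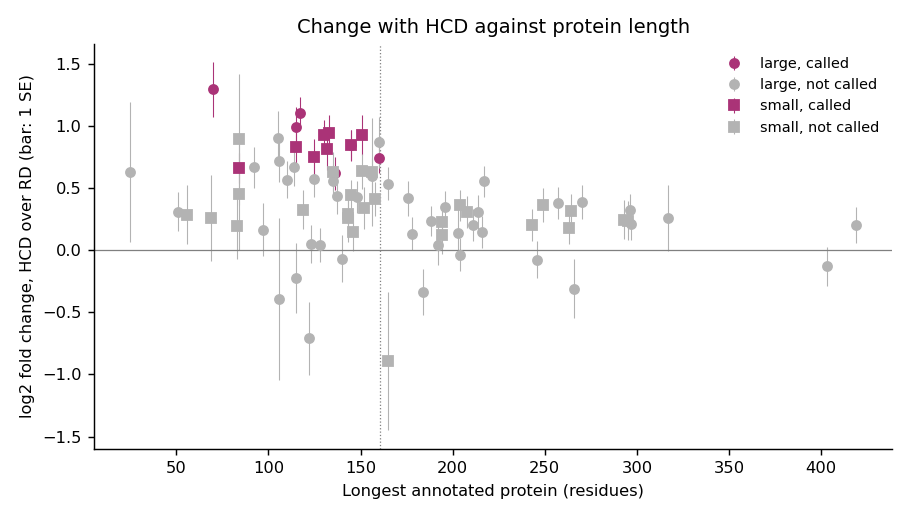
Log2 fold change of HCD over RD with 1 SE (y axis) against the residues encoded by the main transcript (x axis) for 82 members. The x axis is labelled as the longest annotated protein. Circles are large and squares small subunit genes, with genes called by edgeR in purple. All purple points lie left of the dotted line just above 160 residues, at log2 fold changes of 0.62 to 1.29.

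By role, the stalk had 1 of 3 genes called. Besides Rplp2, Rplp1 had 279, 227 and 300 CPM in RD and 412, 421 and 447 CPM in HCD, without overlap, but missed the edgeR threshold (1.59-fold, edgeR adjusted p = 0.055, DESeq2 adjusted p = 0.0011). Rplp0, the anchor of the stalk, had 177, 306 and 290 CPM in RD and 225, 298 and 400 CPM in HCD, which overlapped (edgeR adjusted p = 0.62). Neither of the proteins that bind the smallest ribosomal RNA and can hold Mdm2 away from p53 was called by either tool. Rpl5 had a log2 fold change of 0.21 ± 0.13 SE and Rpl11 of 0.13 ± 0.13 SE.

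Of 8 listed proteins around the exit tunnel, Rpl26 was called by edgeR and 3 by DESeq2, with a median log2 fold change of 0.33 over the list. With the gene length trend over the table removed the median was 0.14. Of the 8, 7 lay above 0, and Rpl17 lay below at -0.34 ± 0.19 SE. Rpl31 had 102, 91.9 and 91.8 CPM in RD and 158, 122 and 142 CPM in HCD (1.48-fold, edgeR adjusted p = 0.065, DESeq2 adjusted p = 0.011), and Rpl19 178, 166 and 180 CPM against 222, 216 and 230 CPM (1.27-fold, edgeR adjusted p = 0.16). For both genes the diets did not overlap. Of 5 proteins on the mRNA path that have a row, Rps15 was called, and the other four had lower folds, with 1.19-fold for Rps2 (edgeR adjusted p = 0.40) and 1.15-fold for Rps3 (edgeR adjusted p = 0.41). None of 3 tested proteins of subunit bridges and joining was called by either tool: Rpl10 had a log2 fold change of 0.31 ± 0.14 SE, Rpl23 of -0.07 ± 0.19 SE and Rpl41 of 0.63 ± 0.56 SE.

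Of 8 members known for roles beyond protein synthesis or as signalling targets, Rpl38, Rps25 and Rps26 were called, and the median was 0.54. Rps14, lost in a myelodysplastic syndrome, had 178, 154 and 177 CPM in RD and 268, 283 and 238 CPM in HCD and missed the edgeR threshold (1.55-fold, edgeR adjusted p = 0.0501, DESeq2 adjusted p = 0.0012). Rps6 had 274, 255 and 294 CPM in RD and 330, 352 and 375 CPM in HCD (1.28-fold, edgeR adjusted p = 0.19), and Rpsa, also described as a laminin receptor, 467, 475 and 490 CPM against 479, 571 and 637 CPM (1.18-fold, edgeR adjusted p = 0.42). Rps19bp1, not a ribosomal protein, had 1.22-fold (edgeR adjusted p = 0.35).

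The ends of the range included some genes with few reads. Rps3a3 had the largest log2 fold change of any member, 1.67 ± 0.54 SE (edgeR adjusted p = 0.13), from 15, 11 and 14 counts in RD and 27, 25 and 45 in HCD. Rpl38 and Rpl34 followed it. The lowest were Rps10 at -0.90 ± 0.55 SE (edgeR adjusted p = 0.40, from 24, 20 and 35 counts against 17, 14 and 4), Rpl22l1 at -0.71 ± 0.29 SE (edgeR adjusted p = 0.21) and Rpl36al at -0.39 ± 0.65 SE (edgeR adjusted p = 0.77). Rps10 was the member in which every HCD liver lay below every RD liver. Rpl22l1 had more reads, with 372, 160 and 446 counts in RD and 227, 93 and 145 in HCD, and was the member that was lower at a raw edgeR p up to 0.05.

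Paralogs are gene pairs that encode versions of the same protein. Rpl22 had 85.2, 73.2 and 83.9 CPM in RD and 94.8, 77.2 and 76.7 CPM in HCD, and its paralog Rpl22l1 had 17.8, 11.1 and 19.3 CPM against 11.5, 6.40 and 11.7 CPM. Both overlapped between diets. Rpl36a had 45.0, 41.5 and 42.9 CPM in RD and 84.3, 53.5 and 75.2 CPM in HCD without overlap (1.65-fold, edgeR adjusted p = 0.065), while Rpl36al had at most 1.67 CPM in any liver. Rpl7 had 302, 280 and 305 CPM against 390, 356 and 415 CPM (1.31-fold, edgeR adjusted p = 0.16), and Rpl7l1, which acts in ribosome assembly, 73.3, 79.4 and 60.8 CPM against 58.6, 72.0 and 71.9 CPM. Rps4x, on the X chromosome, had 239, 233 and 259 CPM against 273, 280 and 272 CPM (1.13-fold, edgeR adjusted p = 0.47), and Rps4l 11.3, 19.2 and 17.9 CPM against 15.2, 20.8 and 26.7 CPM. Rpl3 had 226, 193 and 244 CPM in RD and 228, 174 and 203 CPM in HCD (edgeR adjusted p = 0.68), beside Rpl3l with almost no reads.

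Reads of some members can also map to copies elsewhere in the genome. Of the 100-base stretches of Rps27rt, 89.5% are shared with another gene, but the share is 20.4% for Rps27, 5.81% for Rpl41 with its copy Gm10076 and 27.0% for Rpl17 with Rpl17-ps3. Rps27 itself had 32.6, 24.7 and 54.3 CPM in RD and 109, 77.4 and 20.1 CPM in HCD, and Rps27rt had 33.5, 30.4 and 14.4 CPM in RD and 21.04, 23.6 and 62.9 CPM in HCD. In HCD 3 the level of Rps27 was lowest and that of Rps27rt highest of all livers, and their sum, 66.1, 55.1 and 68.6 CPM in RD and 130, 101 and 83.0 CPM in HCD, did not overlap. Rpl41, which encodes the shortest ribosomal protein of 25 residues, had 168, 98.0 and 192 CPM in RD and 364, 287 and 56.6 CPM in HCD, and its copy Gm10076 had 9.02, 34.1 and 13.7 CPM in RD and 10.1, 11.6 and 77.2 CPM in HCD. Again the copy was highest in HCD 3, where Rpl41 was lowest, and the sum, 177, 132 and 206 CPM against 374, 299 and 134 CPM, still overlapped.

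Rpl17, one of the members with a negative log2 fold change (-0.34 ± 0.19 SE, edgeR adjusted p = 0.35), had 42.2, 38.0 and 58.7 CPM in RD and 31.8, 39.6 and 38.7 CPM in HCD. Rpl17-ps3, a pseudogene name, had 54.6, 39.3 and 52.2 CPM in RD and 75.9, 75.5 and 80.3 CPM in HCD, and the sum overlapped between diets. Rps12-ps3 was called beside Rps12 and rose from 24.9, 23.7 and 30.2 CPM to 54.6, 59.0 and 60.6 CPM (edgeR adjusted p = 0.0095). The sources used here do not say how reads with several positions were assigned, so the levels of these genes are uncertain. These pairs, and the genes of the next paragraph, were chosen after their values were seen.

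**Figure D5:**
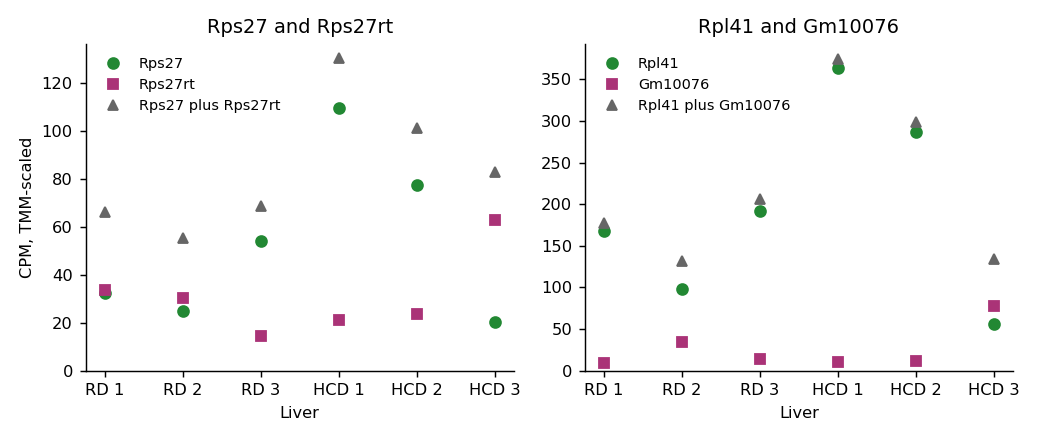
TMM-scaled CPM (y axis) in each liver (x axis) of Rps27 and Rps27rt on the left and of Rpl41 and Gm10076 on the right, with the sum of each pair as grey triangles. In HCD 3 the copy (squares) stands above its source gene (circles), at 62.9 against 20.1 CPM and 77.2 against 56.6 CPM. On the left the copy is also the higher in RD 1 (33.5 against 32.6 CPM) and RD 2 (30.4 against 24.7 CPM).

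Some members were high in HCD 1 alone. Rps27a, a fusion of ubiquitin and a small subunit protein, had 52.9, 43.5 and 55.8 CPM in RD and 146, 41.4 and 47.1 CPM in HCD. Rps28 had 35.3, 25.8 and 40.4 CPM in RD and 65.2, 24.6 and 31.2 CPM in HCD, Rps29 46.8, 49.2 and 49.4 CPM against 84.9, 47.7 and 44.5 CPM, and Rps21 67.4, 55.6 and 63.5 CPM against 104, 64.1 and 45.3 CPM. None of the 4 passed the test (edgeR adjusted p from 0.44 for Rps27a to 0.72 for Rps21), and without HCD 1 their log2 fold changes were -0.20, -0.28, -0.07 and -0.18. Rpl36 was highest in HCD 1 as well, with 76.7, 73.3 and 85.3 CPM in RD and 202, 117 and 121 CPM in HCD, but the other HCD livers also stood above RD (1.87-fold, edgeR adjusted p = 0.064).

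Related genes outside the members gave a mixed picture. Fau had 168, 139 and 167 CPM in RD and 296, 202 and 235 CPM in HCD (log2 fold change 0.63 ± 0.17 SE, edgeR adjusted p = 0.095, DESeq2 adjusted p = 0.015), and Rack1 had a log2 fold change of 0.18 ± 0.13 SE. Neither was called by edgeR, and DESeq2 called Fau. Of the 115 -ps names 52 were tested, with 8 called higher and none lower by edgeR, 14 higher and 1 lower by DESeq2, a raw edgeR p up to 0.05 for 24 higher and 5 lower, and a median log2 fold change of 0.69. With the length trend removed 2 of these names were called higher and their median was 0.37. Of 81 names of mitochondrial ribosomal proteins 78 were tested, with 7 called higher and none lower by edgeR, 12 higher and none lower by DESeq2, and a median of 0.27. The raw edgeR p was up to 0.05 for 32 higher and 2 lower of these genes, 84.6% of the 78 lay above 0, and with the length trend removed their median was 0.25, beside 0.23 for the members. Of 55 tested factors of ribosomal RNA synthesis and subunit assembly, none was called by edgeR and the median was -0.10, with a raw p of 0.05 or less for 3 higher and 6 lower genes and no call by DESeq2.

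Of 20 other genes listed for terminal oligopyrimidine tracts, most of them translation factors, 2 were called higher and none lower by edgeR and 3 higher by DESeq2, with a raw edgeR p up to 0.05 for 5 higher genes and none of the lower, and a median of 0.17. Tpt1, a growth-related protein, had 706, 602 and 747 CPM in RD and 1032, 993 and 1126 CPM in HCD (log2 0.62 ± 0.16 SE, edgeR adjusted p = 0.076, DESeq2 adjusted p = 0.0017). Those called by edgeR were Naca at 139, 117 and 127 CPM in RD and 209, 189 and 209 CPM in HCD (log2 0.66 ± 0.13 SE, edgeR adjusted p = 0.038) and Btf3 at 92.4, 84.7 and 94.9 CPM in RD and 144, 134 and 145 CPM in HCD (log2 0.64 ± 0.12 SE, edgeR adjusted p = 0.032). Their proteins form the complex that meets new chains at the ribosome's exit. Of 13 genes of mTORC1 and its relay to these mRNAs none was called by edgeR, with a raw p of 0.05 or less for none of the higher and 5 of the lower genes, 2 called lower by DESeq2 and a median of -0.27. With the length trend removed the median of these 13 genes was -0.10.

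Markers of other cells of the liver were compared in the same libraries. The summed level of 10 Kupffer cell markers was 168 to 276 CPM in RD and 229 to 505 CPM in HCD, with a median log2 fold change of 0.84. By edgeR none of them was called, but 5 had a raw p up to 0.05, all in the higher direction, and DESeq2 called 3. The 13 leukocyte markers with a row summed to 8.01 to 14.9 CPM and 12.2 to 23.4 CPM, 6 endothelial markers to 83.6 to 144 CPM and 106 to 171 CPM, 6 stellate cell markers to 195 to 206 CPM and 199 to 325 CPM, and 5 cholangiocyte markers to 37.3 to 91.7 CPM and 64.4 to 97.9 CPM, with overlap between diets in each list. None of these was called by edgeR, while the raw p was up to 0.05 for 1 endothelial and 1 stellate cell marker, both higher, and DESeq2 called 1 endothelial marker. Of 7 red cell markers 5 were tested, and Hba-a1 and Hbb-bs were called higher, with 15.3 to 36.7 CPM in RD and 77.0 to 176 CPM in HCD for Hba-a1. Alas2, which held most of the RD sum of the list, had 105, 105 and 153 CPM in RD and 8.22, 96.8 and 119 CPM in HCD (log2 fold change -0.70 ± 0.71 SE, edgeR adjusted p = 0.61), and the sum was 137 to 239 CPM against 176 to 467 CPM. The 2 pancreas markers with a row summed to 20.2 to 26.7 CPM and 7.52 to 23.5 CPM. No marker with a row was at 0 in all livers. The part of these cells in the levels of ribosomal protein genes was not tested.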

How the data were processed

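Liver RNA of 3 RD and 3 HCD mice was sequenced at Novogene, and the groups and replicate numbers were taken from the labels. All RD library names begin with A and all HCD library names with Liver, and the labels do not say what this naming stands for. Any difference tied to it cannot be told apart from diet. The counts that the authors deposited are whole reads per gene with no scaling. A second table deposited by the authors holds FPKM, whose divisor is not the sum of the counts (the counts summed to 138% to 169% of it). The log2 fold changes and the p-values that the authors deposited were not used. The submitters' processing notes name STAR, HTSeq, DESeq2, edgeR and GRCm39, without roles. The exon lengths behind FPKM were those of GENCODE M21 on GRCm38 for 95.5% to 95.9% of genes, so M21 gave types and lengths, and start windows came from RefSeq on GRCm38.p6. The files hold no coordinates.

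Counts were fitted in R 4.3.3 with edgeR 4.0.16 (filterByExpr by diet, TMM factors 0.887 to 1.07, glmQLFit and glmQLFTest, no covariate), and genes with an adjusted p under 0.05 were called. CPM are TMM-scaled. Alternatives used DESeq2 1.42.0, limma 3.58.1 on log2 of FPKM plus 1 or 0.1, other scalings and filters, a loess correction for gene length, a replicate block and the omission of each liver. All 14 called members, the most abundant, the extremes, the paralogs and examples of each role list were named. Members, lists and rules were chosen with earlier results of these data known. Each liver was treated as a separate mouse, as the labels imply. Intervals and SE cover 3 livers per diet, and an exact permutation test of 3 against 3 could not go below p = 0.1, so none was used.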

Additional observations from a re-analysis of the deposited data

How the results depend on the processing

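No member was called lower under any alternative, and the medians of both subunits stayed above 0. The number of members called higher was 14 and became 29 with DESeq2, 7 with the length correction, 4 with the replicate block (beside 0.542% of all genes called higher), 2 with the block and the length correction (0.359% of all genes), and 0 to 11 when 1 liver was left out. For large subunit genes it was 6 and became 18 with DESeq2, 3 with the length correction, 3 with the replicate block, 1 with both together, and 0 to 6 without 1 liver. For small subunit genes it was 8 and became 5 with library totals alone (1.24% of all genes called higher), 4 with the length correction, 1 with the replicate block, 1 with both together, and 0 to 6 without 1 liver. The median of large subunit genes was 0.24 with the length correction and 0.22 with the block added, and that of small subunit genes 0.22 and 0.21. Without 1 liver the medians ran from 0.31 to 0.38 and from 0.34 to 0.41. The log2 ratio of summed level was 0.37 for large and 0.41 for small subunit genes on the CPM scale, and 0.29 and 0.25 as a share of all FPKM. The causes of these moves were not tested, except that fits without a liver have fewer samples.

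Same-numbered livers did not deviate together (correlations -0.084, 0.12 and -0.030). With so few livers per diet, these correlations cannot decide whether the numbers pair the mice. The 4 members called with the block were Rpl34, Rpl38, Rplp2 and Rps15a.

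Of the 87 members tested 69 kept their direction under every alternative that tested them, the called genes among them, and 18 uncalled ones did not. Of these, Rpl13a was at -0.0072 without HCD 2, Rps3a2 at -0.11 without HCD 2 and -0.070 with the block and the length correction, Rpl37rt at -0.037 with both, Rpl22 at -0.018 with library totals alone, Rps21 at -0.035 with the length correction and -0.14 with the block added, and with both together Rps27rt was at -0.035 and Rps29 at -0.054. Without 1 liver Rpl22 ran from -0.071 to 0.082, Rpl23 from -0.26 to 0.094, Rpl36al from -1.02 to 0.024, Rpl7l1 from -0.18 to 0.016, Rps21 from -0.18 to 0.42, Rps27a from -0.20 to 0.93, Rps27rt from -0.23 to 0.73, Rps28 from -0.28 to 0.51 and Rps29 from -0.073 to 0.44. Rpl9, Rpl15, Rpl30, Rpl35, Rpl37 and Rps16 were the others.

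Scaling from genes outside the family, chosen after the data were seen, gave 15 calls beside 1.99% of all genes. Counts near 0, as for Rpl24, Rpl36al and Rps10, limit what can be said of these genes.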
